A study of Mus musculus with 2 samples.

Results

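Box H/ACA snoRNAs and the small RNAs of the Cajal body were examined in the small RNA of testicular extracellular vesicles (EVs). They were taken as the snoRNA entries whose description names SNORA, SCARNA or the Cajal body, which gave 28 of the 134 snoRNA entries and of the 27065 entries in all. Of the 28, 22 are SNORA families and 6 are small Cajal body-specific RNAs (SCARNA), and each entry is a family of the Rfam database rather than a single gene. The EVs came from the testes of adult C57/BL6 mice and had been through proteinase K and RNase A before RNA extraction. The 2 libraries are of this 1 condition, so no group stands against it and no test between conditions was made. No source used here states if separate animals gave the libraries, so their spread may be technical. Listed counts summed to 21970654 in library 1 and 24829208 in library 2, and levels are given in CPM, each count over its library's listed sum scaled to 1000000. The lowest count listed in either library is 1, and families outside the list were not analysed here. As each library has a count for all 27065 entries, the list holds no RNA that only a single library gave. The shares of entries 2-fold apart and the correlations between the libraries given below therefore leave out any such RNA. Being seen in library 1 and in library 2 is likewise a property of the list and not a result. As the RNA was pooled over vesicles, fewer vesicles with an RNA and less of it per vesicle cannot be told apart.

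As background, H/ACA snoRNAs fold into a pair of hairpins joined by the H box and followed by the ACA box near the 3′ end. With the protein dyskerin, the pseudouridine synthase of the complex, they guide the change of uridine to pseudouridine in ribosomal RNA (rRNA) in the nucleolus. Most are cut out of introns of host genes, many of which encode ribosomal proteins. Small Cajal body RNAs guide the same change, or 2′-O-methylation, in the spliceosomal snRNAs, and some carry both H/ACA and C/D boxes. A further few, led by SNORA73 (U17), act in cutting the rRNA precursor and not in modifying it.

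Of the 28 members, 14 could be matched by name to a mouse gene of GENCODE M21 (GRCm38), with 17 gene models of 121 to 275 bases (median 139). GENCODE also holds many snoRNA genes without a family name, so a family count cannot be given to a single gene. Gene models of the abundant or most variable members are shown as examples of the RNAs in these families. The counts are of small RNA tags, and whether the full-length RNAs were present was not tested. Capitals mark the match to the H box motif ANANNA nearest the middle of the RNA and the ACA within the last 8 bases, searched on the RNA strand alone.
Snora7a: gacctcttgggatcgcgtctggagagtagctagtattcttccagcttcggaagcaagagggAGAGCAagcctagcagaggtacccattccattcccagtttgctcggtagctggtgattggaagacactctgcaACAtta
Snora73a: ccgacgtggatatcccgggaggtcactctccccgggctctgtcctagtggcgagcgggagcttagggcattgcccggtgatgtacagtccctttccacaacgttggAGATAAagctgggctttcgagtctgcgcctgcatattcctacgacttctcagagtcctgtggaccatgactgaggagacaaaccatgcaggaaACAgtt
Snora44: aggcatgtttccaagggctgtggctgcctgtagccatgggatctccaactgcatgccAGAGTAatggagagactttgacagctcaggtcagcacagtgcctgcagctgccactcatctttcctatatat
Snora21: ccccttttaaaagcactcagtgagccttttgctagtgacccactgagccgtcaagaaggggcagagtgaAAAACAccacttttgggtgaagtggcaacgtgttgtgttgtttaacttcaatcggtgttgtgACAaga
Snora57: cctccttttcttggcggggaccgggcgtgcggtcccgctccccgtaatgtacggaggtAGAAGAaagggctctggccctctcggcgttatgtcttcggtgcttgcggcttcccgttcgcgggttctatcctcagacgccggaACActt
An ACA near the 3′ end was present in 14 of the 17 gene models (82.4%), against 7 of 98 Snord gene models (7.14%). The H box motif is short and was found in the middle of 88.2% of the members' gene models, against 59.2% of Snord gene models, so alone it sets the classes apart less. The stretch searched grows with length, and the matched members had a median of 138 bases, against 76.5 for matched SNORD entries. The part of length in this difference was not tested. The Snora44 model carries AGAGTA as its H box motif and no ACA within its last 8 bases. In place of the ACA, Scarna6, the longest of the gene models after Scarna13, has the box motifs of a C/D RNA at its ends, marked in capitals here (TGATGA within the first 20 bases, CTGA near the last).
Scarna6: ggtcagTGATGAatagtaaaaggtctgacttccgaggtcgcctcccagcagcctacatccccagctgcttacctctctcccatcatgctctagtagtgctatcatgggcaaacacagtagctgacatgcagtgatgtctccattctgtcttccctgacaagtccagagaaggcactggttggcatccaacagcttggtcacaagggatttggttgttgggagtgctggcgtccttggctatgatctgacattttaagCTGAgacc

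In sum, the 28 members had 2600 counts in library 1 and 2636 in library 2, or 118 and 106 CPM, with a mean of 112 ± 8.61 CPM (SD, n = 2). They made up 0.0118% of the listed counts in library 1 (exact Clopper-Pearson 95% interval 0.0114 to 0.0123) and 0.0106% in library 2 (0.0102 to 0.0110), and these intervals cover counting error only. The SNORA families held 96.8 ± 11.8 CPM of this and the Cajal body RNAs 15.4 ± 3.23 CPM. Within snoRNA, the members held 9.51% of the counts in library 1 (9.16 to 9.86) and 12.2% in library 2 (11.7 to 12.6). This difference moved with U3, a C/D snoRNA of rRNA processing, which held 32.6% of snoRNA counts in library 1 and 13.6% in library 2. With U3 left out, which was chosen after seeing the data, the members held 14.1% (13.6 to 14.6) of the remaining snoRNA counts in library 1 and 14.1% (13.6 to 14.6) in library 2. The SNORD families, 70 entries of box C/D snoRNA, held 46.9% and 62.9% of snoRNA counts in libraries 1 and 2.

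Most members had few counts. Of the 28, 7 had a mean of at least 5 CPM, 13 lay from 1 to 5 CPM and 8 were under 1 CPM. At least 10 counts in both libraries were reached by 19 members, at least 30 by 14 and at least 100 by 6. The 5 highest members held 59.9% (library 1) and 61.3% (library 2) of the member counts. With the 10 highest these shares were 77.5% and 82.1%. Per 100 bases of gene model, the 14 matched members had a median level of 1.67 CPM, against 3.31 CPM for the 46 SNORD entries that could be matched. The per-length levels overlapped, since all 14 members lay within the SNORD range of 0.0445 to 62.7 CPM, the lowest of them, SCARNA3, at 0.266 CPM.

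**Figure D1:**
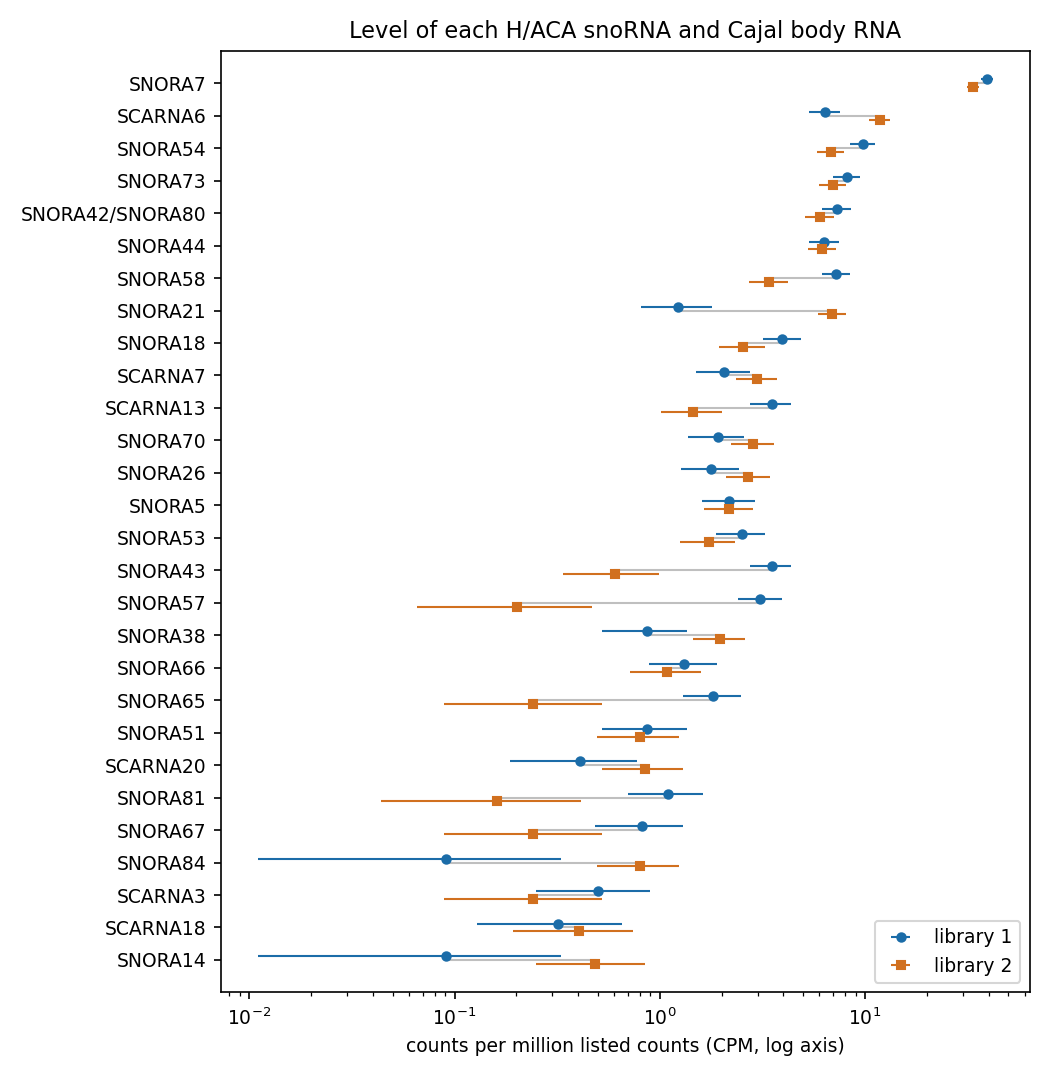
Level of each of the 28 members in CPM on a log axis, in library 1 (circles) and library 2 (squares), with exact Poisson 95% intervals of the counts as bars. SNORA7 stands above the rest at 39.3 and 33.5 CPM, while SNORA21 and SNORA57 show wide gaps between the libraries.

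Among the guides of rRNA, SNORA7 was the highest in both libraries. It had 864 counts (39.3 CPM) in library 1 and 831 counts (33.5 CPM) in library 2, which averaged 36.4 ± 4.14 CPM (SD, n = 2), and it held 33.2% and 31.5% of the member counts. Its counting intervals, 36.7 to 42.0 CPM and 31.2 to 35.8 CPM, did not overlap. SNORA7 is a guide of large subunit rRNA in human. Its mouse gene Snora7a (chr6:115807975-115808114, minus strand) lies within the ribosomal protein gene Rpl32, where it overlaps an exon of an annotated transcript. Per 100 bases of gene model its level was 28.1 CPM (library 1) and 23.9 CPM (library 2). The next matched member by this measure, SNORA44, had 4.90 and 4.81 CPM.

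The SNORA members that followed ranged from 8.27 CPM for SNORA54 to 3.25 CPM for SNORA18 in the mean. For SNORA54, libraries 1 and 2 gave 214 and 169 counts (8.27 ± 2.07 CPM), and the entry shared by SNORA42 and SNORA80 had 160 and 150 counts (6.66 ± 0.878 CPM). SNORA42 has been studied in human lung cancer, where it is raised. SNORA44 had 139 and 154 counts in libraries 1 and 2, which is 6.26 ± 0.0879 CPM, and its gene Snora44 (chr4:132309941-132310069, plus strand) lies within the snoRNA host gene Snhg12. For SNORA58 they gave 159 and 85 counts (5.33 ± 2.70 CPM), and SNORA18 had 87 and 63 (3.25 ± 1.01 CPM). By mean CPM, SNORA54, SNORA42/SNORA80 and SNORA44 differed by less than the SD of SNORA54.

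SNORA73, or U17, is the member known for cutting the rRNA precursor on the way to the small subunit. Library 1 held 179 of its counts (8.15 CPM) and library 2 held 173 (6.97 CPM), for a mean of 7.56 ± 0.834 CPM (SD, n = 2). Its counting intervals in the libraries overlapped. Mouse has a pair of copies, Snora73a (chr4:132352775-132352979) and Snora73b (chr4:132352322-132352526), on the minus strand within the snoRNA host gene Snhg3 and introns of Rcc1. They are identical at 198 of 205 aligned bases (96.6%), so short tags from them can rarely be told apart.

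The rest of the SNORA guides were each under 5 CPM. SNORA70, a guide of small subunit rRNA in human whose gene lies within Rpl10, had 42 counts in library 1 and 71 in library 2. SNORA26, within the noncoding host gene Dancr, had 39 and 67 counts, and SNORA5, within Tbrg4, had 48 and 54. SNORA53 had 55 and 43 in the same order, SNORA66, another guide of small subunit rRNA in human, had 29 and 27, and SNORA51 had 19 and 20. For these 6 members the counting intervals of the libraries overlapped, and the furthest apart were SNORA26 and SNORA70, at log2 ratios of library 1 over library 2 of -0.60 and -0.58. At the low end, SNORA14 had 2 counts in library 1 and 12 in library 2.

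Of the 6 Cajal body members, SCARNA6 had the highest CPM in both libraries. SCARNA6, known as U88 in human, carries both C/D and H/ACA boxes. It had 140 counts (6.37 CPM) in library 1 and 293 counts (11.8 CPM) in library 2, with a mean of 9.09 ± 3.84 CPM (SD, n = 2). The counting intervals did not overlap, at 5.36 to 7.52 CPM and 10.5 to 13.2 CPM. Its gene (chr1:87784556-87784820, plus strand) lies in an intron of the autophagy gene Atg16l1. By mean CPM and in library 2 SCARNA6 was the second of all members, and in library 1 it was the sixth. Per 100 bases of gene model it was the fourth of the 14 matched, at 3.43 ± 1.45 CPM.

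SCARNA7, known as U90 in human, is a box C/D guide of U1 snRNA and is a member by its Cajal body name alone. It had 45 counts in library 1 and 74 in library 2 (2.51 ± 0.659 CPM). SCARNA13, or U93, a large H/ACA guide of U2 and U5 snRNA in human, had 77 counts in library 1 and 36 in library 2 (2.48 ± 1.45 CPM). SCARNA20 had 9 and 21 counts, SCARNA3 11 and 6, and SCARNA18 7 and 10. The Cajal body RNAs held 11.1% of the member counts in library 1 (95% interval 9.93 to 12.4) and 16.7% in library 2 (15.3 to 18.2), a mean of 13.9% ± 3.94. Without SCARNA6, which was left out after seeing the data, the share was 6.17% ± 0.154. Of their snRNA targets, U2 had 81.8 ± 29.2 CPM and U1 49.3 ± 11.8 CPM, and U5 was counted 13 times in library 1 and 20 times in library 2. The log2 ratio of library 1 over library 2 was -0.89 for SCARNA6, -0.54 for SCARNA7 and 1.27 for SCARNA13, so these guides went either way. Their targets U1 (-0.50), U2 (-0.74) and U5 (-0.45) were each lower in library 1. So were U4 (-3.60, with 3 counts in library 1 and 41 in library 2), U6atac (-0.58) and SmY (-2.15). Higher in library 1 were U6 (0.32), U12 (0.22), U7 (1.89) and U11 (0.59). Of the 10 snRNA entries, 4 were higher in library 1 and 6 in library 2. The 6 include SmY, with 30 counts in library 1 and 150 in library 2. Whether each of these families stands for a mouse RNA was not tested.

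The spread between the libraries was then examined over members with a mean count of at least 10. Of 25 such members, 11 were at least 2-fold apart in CPM, or 44.0%, beside 33.7% of the 23876 entries at that depth. The sets are not alike in low counts. All 6588 predicted piRNA and 168 predicted miRNA entries had at least 10 counts in both libraries, but only 19 of the 28 members did. This limit applies to each share over all entries given beside the members. By direction, 7 of the 25 were at least 2-fold higher in library 1, beside 12.6% of all entries, and 4 were at least 2-fold higher in library 2, beside 21.2% of all. These shares were lower where the minimum was higher. Among the 18 members with a mean count of at least 30, 6 were 2-fold apart (33.3%), beside 29.5% of all entries at that depth, and among the 7 with at least 100, SNORA58 alone was (14.3%, beside 20.1%), while SNORA21 fell just short of that minimum with a mean count of 99.5. Under TMM scaling 7 members were 2-fold higher in library 1 and 3 in library 2, and of all entries 3805 and 4079 were, where CPM gave 2997 and 5050. In CPM, 161 of 519 known miRNA entries were 2-fold higher in library 1 and 33 in library 2. For the 23876 entries together, edgeR put the spread between the libraries that counting does not give at a coefficient of variation of 49.3%.

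**Figure D2:**
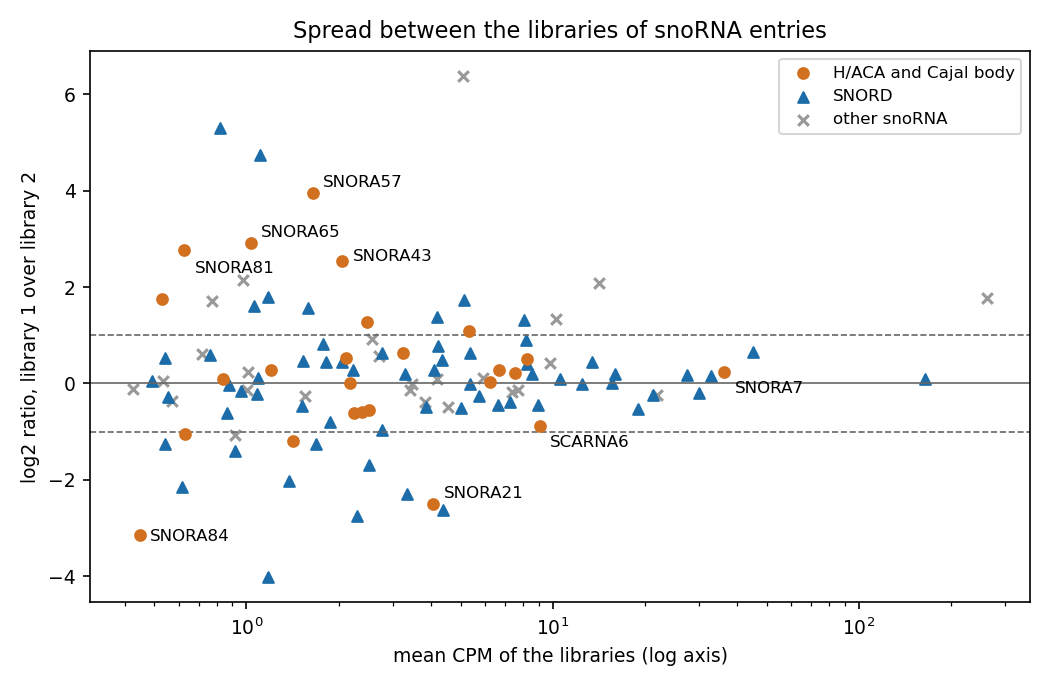
Log2 ratio of library 1 over library 2 against mean CPM on a log axis for snoRNA entries whose mean count reached 10, with members as circles, SNORD entries as triangles and other snoRNA as crosses. Dashed lines mark a 2-fold difference, and 11 of the 25 members lie beyond them, with SNORA57 the highest of the members and SNORA84 the lowest.

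SNORA57 was the furthest apart and was higher in library 1, with 68 counts (3.10 CPM) in library 1 and 5 counts (0.201 CPM) in library 2. Its log2 ratio was 3.94 and its counting intervals, 2.40 to 3.92 CPM and 0.0654 to 0.470 CPM, did not overlap. Its gene Snora57 (chr19:8888538-8888685, minus strand) was the gene model of highest GC content among the members, at 62.2%. The next of the members higher in library 1 was SNORA65, a guide of large subunit rRNA in human within Rpl12, with 40 counts in library 1 and 6 in library 2 (log2 ratio 2.91). SNORA81, within the translation factor gene Eif4a2, had 24 and 4 counts (2.76), SNORA43 had 77 and 15 (2.54) and SNORA67 had 18 and 6 (1.76). The gene model of SNORA81 had the lowest GC content among the members, at 38.8%. The other members 2-fold higher in library 1 were SCARNA13 (1.27) and SNORA58 (1.08). The first 5 were low in library 2, at 4 to 15 counts.

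In the other direction, SNORA21 stood out by its depth. It had 27 counts (1.23 CPM) in library 1 and 172 counts (6.93 CPM) in library 2, a log2 ratio of -2.49, with counting intervals of 0.810 to 1.79 CPM and 5.93 to 8.04 CPM. SNORA21 is a guide of large subunit rRNA in human, and its gene (chr11:97781639-97781775, minus strand) lies in an intron of the ribosomal protein gene Rpl23. SNORA84 had 2 counts in library 1 and 20 in library 2, SNORA38 had 19 and 49, and SCARNA20 9 and 21, with log2 ratios of -3.15, -1.19 and -1.05. Of the 11 members 2-fold apart, the counting intervals did not overlap for 9 (81.8%), beside 79.9% of all 8047 entries that were 2-fold apart, and overlapped for SNORA67 and SCARNA20. Among the 25 members with a mean count of at least 10, they did not overlap for 12 (48.0%), beside 41.9% of the 23876 entries. With 1 library on each side, none of these differences has a replicate check.

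Within a host gene lay 14 of the 17 gene models, and those in ribosomal protein genes went both ways. The 4 gene models in ribosomal protein genes belong to SNORA7, SNORA21, SNORA65 and SNORA70, whose log2 ratios were 0.23, -2.49, 2.91 and -0.58. Over the 25 members the median log2 ratio was 0.23, beside 0.08 for 63 SNORD entries, -0.47 for 10 snRNA entries and -0.20 for all entries, with 17 members higher in library 1 and 8 higher in library 2. The share higher in library 1 was 68.0% of the 25 members and 41.9% of all entries. It was 79.2% for known miRNA, 72.0% for predicted miRNA and 58.8% for predicted piRNA entries. Known piRNAs, 16396 of the 23876 entries, stood at 33.5%. The lean to library 1 was thus not particular to the members. Scaling by TMM shifts every entry by the same amount, and gave medians of 0.42 for the members and -0.01 for all entries. Across the 28 members, the log2 CPM of the libraries had a Pearson correlation of 0.66 and a Spearman correlation of 0.68, a description over entries that share library and depth, beside 0.82 and 0.83 over the 70 SNORD entries.

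Tags of H/ACA and Cajal body RNA genes were also counted outside the snoRNA entries. The authors gave each tag to miRNA databases before snoRNA, so tags of a miRNA that lies inside such a gene are counted as miRNA. The piRNA database also came before snoRNA, and whether known piRNA entries hold tags of these genes was not tested. Mature miRNA sequences of RefSeq (GRCm38.p6) were searched in the 51 named Snora and Scarna gene models, and 7 listed miRNA entries lie inside them. Their sum was 19.8 CPM (library 1) and 8.14 CPM (library 2), equal in size to 16.8% and 7.66% of the member counts.

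The miR-1843 entries show this most. Scarna3a (chr1:159340283-159340422, plus strand, in an intron of Cop1) and Scarna3b (chr12:80391613-80391751, minus strand, in an intron of Dcaf5) are identical at 120 of 140 aligned bases (85.7%). Capitals mark the listed miR-1843 sequences within them.
Scarna3a: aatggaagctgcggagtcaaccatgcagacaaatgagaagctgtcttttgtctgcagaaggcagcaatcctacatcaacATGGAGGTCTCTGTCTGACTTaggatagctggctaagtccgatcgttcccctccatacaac
Scarna3b: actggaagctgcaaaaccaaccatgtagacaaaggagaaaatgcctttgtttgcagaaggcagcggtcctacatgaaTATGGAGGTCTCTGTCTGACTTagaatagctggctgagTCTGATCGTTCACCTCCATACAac
The mature sequences are given with the seed, bases 2 to 8, in capitals, to show that the 5p forms are the same stretch shifted by a base.
miR-1843a-5p: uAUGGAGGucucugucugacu
miR-1843b-5p: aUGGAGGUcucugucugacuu
miR-1843a-3p: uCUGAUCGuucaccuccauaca
The 5p form of miR-1843b lies at bases 80 to 100 of Scarna3a and also at bases 79 to 99 of Scarna3b, so its tags may come from either gene. It had 218 counts in library 1 and 24 in library 2, while miR-1843a-5p had 108 and 123 and miR-1843a-3p had 7 and 9. In sum, the miR-1843 entries had 333 counts in library 1 and 156 in library 2, beside 11 and 6 for the SCARNA3 entry. Library 1 thus held 30.3 times as many miR-1843 as SCARNA3 counts, and library 2 held 26 times as many.

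**Figure D3:**
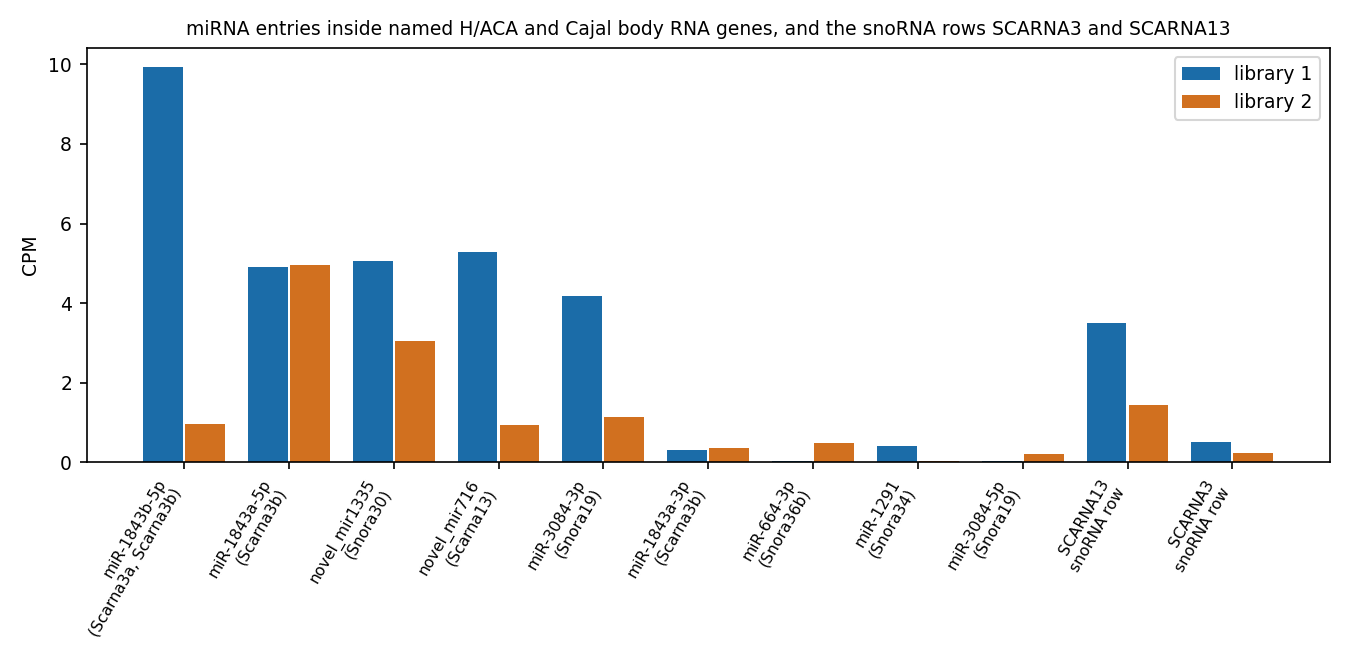
CPM in library 1 (left bars) and library 2 (right bars) of miRNA entries that lie inside a named Snora or Scarna gene, given in brackets, and of the snoRNA entries SCARNA13 and SCARNA3. The miR-1843 bars exceed those of SCARNA3 in both libraries, apart from miR-1843a-3p in library 1.

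Other known miRNAs inside the named genes were each below both miR-1843 5p forms in mean CPM. In Snora19, libraries 1 and 2 gave miR-3084-3p 92 and 28 counts and miR-3084-5p 1 and 5. In Snora34, miR-1291 had 9 and 1, and in Snora36b, miR-664-3p had 1 and 12. Outside the named genes, miR-1839-5p lies in a gene that GENCODE types as scaRNA and names Mir1839, and it had 503 counts in library 1 and 276 in library 2 (17.0 ± 8.33 CPM).

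Predicted miRNAs were compared with the same genes by position. No source used here names the build of the deposited positions. On GRCm38, 7 of 168 predicted miRNAs overlapped one of 1558 snoRNA or scaRNA genes of their own strand. Moving all positions by 1000 bases down or up left 0 and 1 overlaps, and of 6587 predicted piRNAs 0 overlapped such a gene at their own positions. A pair of these 7 lie on named genes and are shown in capitals within them.
Scarna13: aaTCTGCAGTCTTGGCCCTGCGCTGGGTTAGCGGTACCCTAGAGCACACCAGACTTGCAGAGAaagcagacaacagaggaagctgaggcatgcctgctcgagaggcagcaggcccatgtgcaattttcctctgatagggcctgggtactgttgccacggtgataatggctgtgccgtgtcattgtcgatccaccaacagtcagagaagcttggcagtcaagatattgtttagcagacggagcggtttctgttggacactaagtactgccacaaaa
Snora30: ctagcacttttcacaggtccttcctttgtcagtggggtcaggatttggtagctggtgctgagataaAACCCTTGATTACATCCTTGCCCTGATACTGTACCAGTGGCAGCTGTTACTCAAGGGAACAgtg
On Scarna13 (chr12:105031075-105031349, minus strand, in an intron of Snhg10), novel_mir716 covers bases 3 to 63 and was counted 116 times in library 1 and 23 times in library 2. The SCARNA13 entry itself had 77 and 36, so the predicted miRNA had 1.51 times its counts in library 1 and 0.639 times in library 2. On Snora30 (chr7:127527874-127528003, plus strand), novel_mir1335 covers bases 67 to 127, the 3′ part of the RNA, and was counted 111 times in library 1 and 76 times in library 2. The other 5 overlap snoRNA genes without a family name, of 80 to 134 bases. Of them, novel_mir1632 shares only 25 bases with its gene and runs past the gene's 3′ end. The highest of the 5 by mean CPM was novel_mir946, with 163 counts in library 1 and 39 in library 2.

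As a check of the labelled tissue, all 9 listed testis miRNAs had counts, with 6390 CPM in library 1 and 4985 CPM in library 2 in sum. Red blood cell miRNAs had 633 and 358 CPM, leukocyte miRNAs 111 and 64.7 CPM, striated muscle miRNAs 7.69 and 7.65 CPM and the liver miRNA miR-122 8.37 and 3.50 CPM. The part of other cell types in the members' counts was not tested.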

How the data were processed

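Small RNA of testicular EVs was sequenced by the authors on the BGISEQ-500 platform in 2 libraries of 1 condition. Per the methods and the submitters' processing notes, reads were mapped with Bowtie2 and cmsearch. By the same sources, each tag was given to a single class in the order miRBase, piRNABank, snoRNA, Rfam and other. The methods mark the snoRNA step as human/plant, so the snoRNA entries are not a set defined in mouse. Neither the versions of Bowtie2 and cmsearch nor the build are named in the sources used here. The deposited tables of the authors give a whole-number count per entry, with no normalization, and a value headed TPM. The deposited TPM values have no length correction and are RPM of a larger total, and the listed entries make up 93.7% (library 1) and 94.9% (library 2) of it.

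CPM were computed from the counts over the sum of all rows of a library. Shares have exact Clopper-Pearson and CPM exact Poisson 95% intervals (SciPy 1.17.1), whose width reflects counting alone, as PCR copies of a molecule are counted apart. The dispersion was estimated with edgeR 4.0.16 in R 4.3.3 with the libraries as 1 group, and the calculation was tested on simulated data. No test between conditions was made. Gene models and their sequences are from GENCODE M21 and mature miRNAs from RefSeq. Levels per 100 bases use the mean length of the gene models that share a member's family number. The H box was searched between 30% and 70% of the length.

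The members and lists were chosen with earlier results of these data known. The text names the 15 members of highest mean CPM, those furthest apart between the libraries (5 in each direction), all Cajal body RNAs, SNORA65, SNORA66 and SNORA70, and predicted miRNAs on Snora or Scarna genes. SNORA51, SNORA14 and the known miRNAs fall outside this rule and were named after their values were seen, as the Snora21, Snora57, Scarna3b and Snora30 sequences were. Alternatives were pooled counts, the deposited values, TMM and DESeq2 1.42.0 scaling, other denominators, count minimums and fold limits, members left out and each library left out.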

Additional observations from a re-analysis of the deposited data

Results flagged for a closer look

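A pair of snoRNA entries outside the naming rule of the members are themselves Cajal body RNAs and had counts in both libraries above the 3 that a count of 0 allows. U89, also known as SCARNA12, had 161 counts in library 1 and 201 in library 2, a mean of 7.71 CPM. U85, also known as SCARNA10, had 21 and 26 counts, a mean of 1.00 CPM. No control library was used here for either RNA.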

How the results depend on the processing

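No paired analysis was possible because both libraries belong to the same condition, which leaves no groups to pair. The member share of listed counts was 0.0429% over annotated classes alone, 0.00759% without SNORA7 and 0.0121% with U85 and U89 added, and 0.0106% to 0.0118% in single libraries. The share of snoRNA counts was 7.34% without SNORA7 and 14.1% without U3, and 9.51% to 12.2% in single libraries. Over snoRNA entries of named human families alone, its mean was 12.2%. The Cajal body share of member counts was 20.1% with U85 and U89 added and 6.17% without SCARNA6, and 11.1% to 16.7% in single libraries. The 5 highest members held 50.0% without SNORA7, and 59.9% to 61.3% in single libraries. A minimum of 100 counts in both libraries left 6 members. The median log2 ratio was 0.42 under TMM and 0.41 under DESeq2 scaling. Members 2-fold apart numbered 6 at a mean count of at least 30 and 1 at 100, and 6 were apart at a 4-fold limit, beside 9.34% of all entries. The U85, U89, U3, SCARNA6 and mean count of 30 settings were chosen after seeing the data. Under the deposited TPM values, 25 of 28 member levels moved by less than their SD. Per 100 bases, 7 of 14 matched members kept their rank. With 2 to 20 counts in a library for many members, depth limits their levels.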
